A study of Mus musculus with 6 samples.

Results

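The genes described are 46 genes of the cell cycle and of DNA replication, taken by their gene names from a deposited expression table of 54532 mouse genes. They fall into 8 G1 cyclins and regulators, 13 genes of replication licensing and the replication fork, 4 genes of deoxynucleotide synthesis, 11 mitotic cyclins, kinases and checkpoint genes and 10 chromosome and spindle genes. Expression was measured by RNA-seq in peritoneal macrophages of WT C57BL/6J male mice aged 6 to 8 weeks, harvested 5 days after an injection of thioglycolate, which draws inflammatory cells into the peritoneal cavity, and kept in culture overnight. Control cells were untreated. Model cells received LPS (500 ng/mL), a bacterial cell wall component that primes macrophages, for 5.5 h and then ATP (2 mM) for 0.5 h, which activates the NLRP3 inflammasome. MUS cells were treated like Model cells and also received muscone (50 μM), a macrocyclic ketone from musk, 5 h after LPS and 0.5 h before ATP. Each group had 2 libraries, whose replicate number the labels also give as a batch, and all 3 groups shared the genotype, the thioglycolate elicitation and the overnight culture. No source used here says whether replicates came from separate animals or cultures, so p-values measure the spread between these libraries, which may be technical. The comparison of Model with Control asked what LPS + ATP changed, and that of MUS with Model asked what muscone changed in LPS + ATP-treated cells.

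D-type cyclins, made when cells receive growth signals, and later E-type cyclins activate the kinases that inactivate the retinoblastoma protein and so release E2F factors, which switch on the genes for DNA synthesis. The MCM helicase is loaded on DNA by Cdc6 and Cdt1 before S phase, ribonucleotide reductase and thymidylate enzymes supply deoxynucleotides, and cyclin B with Cdk1 drives entry into mitosis. Elicited peritoneal macrophages are largely post-mitotic, and several of these genes, Cdkn1a and Ccnd2 among them, also respond to inflammatory signals in cells that do not divide.

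The E2F and cell cycle homology region (CHR) motifs are the textbook elements through which such genes are switched on and off, and the CCAAT box is a common element of their promoters. The 250 bases before the gene start were available from RefSeq (GRCm38.p6) for 36 of the 46 genes, matched by symbol. Both strands were searched for the CCAAT box (CCAAT), the E2F site (TTTCCCGC, TTTCGCGC, TTTGCCGC and TTTGGCGC) and the CHR (TTTGAA and TTCGAA). None of these motifs contains another, but neighbouring motifs can share the bases at their ends. A CCAAT box was present in 27 of the 36 genes (75%) and in 37.49% of the 27025 genes of the table, an E2F site in 6 (16.67%, against 2.157% of all genes) and a CHR in 12 (33.33%, against 19.55%). Of the 10 matched replication licensing and fork genes, 8 had a CCAAT box, 5 an E2F site and 3 a CHR. Among the 5 matched G1 cyclins and regulators, 2 had a CCAAT box, 0 an E2F site and 1 a CHR. The 4 deoxynucleotide synthesis genes held a CCAAT box in 2, an E2F site in 0 and a CHR in 0. Of the 9 mitotic cyclins, kinases and checkpoint genes, 8 had a CCAAT box, 1 an E2F site and 4 a CHR, and of the 8 chromosome and spindle genes 7 had a CCAAT box, 0 an E2F site and 4 a CHR. The promoters below are those of 3 genes whose level differed from Control, Cdkn1a (chr17:29090729-29090975, plus strand), Ccne1 (chr7:38107535-38107740, minus strand) and Mcm6 (chr1:128359706-128359955, minus strand), and that of Cdk1 (chr10:69352939-69353162, minus strand), a gene that holds all 3 motifs. They are written 5′ to 3′ on the strand of the gene, bases inside the deposited gene position are left out, and capitals mark the motifs.
Cdkn1a: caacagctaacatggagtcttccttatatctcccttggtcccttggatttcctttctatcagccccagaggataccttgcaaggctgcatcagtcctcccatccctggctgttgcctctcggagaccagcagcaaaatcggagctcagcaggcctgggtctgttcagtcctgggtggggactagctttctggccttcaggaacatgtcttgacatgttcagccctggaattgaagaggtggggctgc
Ccne1: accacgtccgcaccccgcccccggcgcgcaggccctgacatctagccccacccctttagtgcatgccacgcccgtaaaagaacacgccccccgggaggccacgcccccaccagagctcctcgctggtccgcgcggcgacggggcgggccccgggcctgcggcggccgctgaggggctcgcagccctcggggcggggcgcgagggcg
Mcm6: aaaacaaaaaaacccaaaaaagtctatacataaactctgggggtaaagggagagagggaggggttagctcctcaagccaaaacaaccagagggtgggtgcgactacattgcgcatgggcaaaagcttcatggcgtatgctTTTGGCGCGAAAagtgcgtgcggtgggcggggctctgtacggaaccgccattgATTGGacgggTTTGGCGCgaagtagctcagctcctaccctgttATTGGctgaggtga
Cdk1: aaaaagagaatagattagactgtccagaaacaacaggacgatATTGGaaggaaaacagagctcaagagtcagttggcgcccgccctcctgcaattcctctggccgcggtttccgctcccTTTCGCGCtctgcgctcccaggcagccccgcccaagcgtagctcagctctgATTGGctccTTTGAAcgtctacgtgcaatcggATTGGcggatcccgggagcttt
The Cdkn1a and Ccne1 windows held none of the searched letters. The Mcm6 window held 2 CCAAT boxes and 3 E2F sites, 2 of which overlap, and the Cdk1 window held 3 CCAAT boxes, 1 E2F site and 2 CHR, of which 1 CHR lies in the 26 bases left out. A match is a description of these letters and no evidence that a factor was bound.

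**Figure D1:**
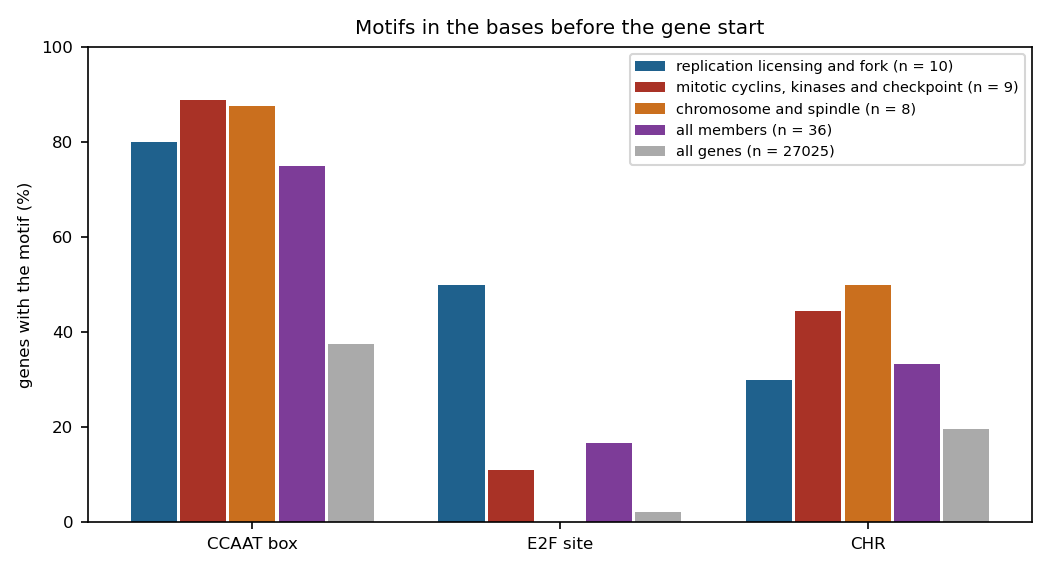
Percent of genes with a CCAAT box, an E2F site or a CHR in the bases before the gene start, for 3 roles, for the 36 matched cell cycle genes and for 27025 genes. E2F sites were present in 5 of 10 replication licensing and fork genes and in 0 of 8 chromosome and spindle genes.

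The libraries held 15526321 to 17135442 fragments on genes. Model replicate 1 stood apart in the number of genes with a fragment, 24906 against 17406 to 19200 in the other libraries. FPKM divides the fragments of a gene by its length and by a library-wide scale. That scale was 1.34 to 1.45 times the fragment total in Control and 0.909 to 0.998 times in Model and MUS, so fold changes against Control depend on the scale, as given beside the results. All 7 macrophage markers checked (Adgre1, Cd68, Csf1r, Itgam, Lyz2, Mertk and Fcgr1) had a mean of at least 1 FPKM, with a summed level of 11836 to 13340 FPKM in Control, 8426 to 12535 in Model and 10257 to 12096 in MUS. Lyz2 was the main part of these sums, at 10252 and 12007 FPKM in Control. None of the markers of B cells, T and innate lymphocytes, mast cells or erythroid cells reached a mean of 1 FPKM. The erythroid markers Hba-a1, Hba-a2, Hbb-bs and Hbb-bt and the eosinophil markers Prg2 and Epx were listed at 0 in every library. Whether reads of such genes could be counted was not tested. The 5 neutrophil markers summed to 20.3 to 34.1 FPKM in Control, 60.2 to 113 in Model and 54.7 to 68.7 in MUS, of which S100a8 was the main part, while S100a9 and Retnlg were listed at 0 in every library. The 6 markers of mesothelium and fibroblasts summed to 16.2 to 17.0, 19.6 to 31.1 and 19.6 to 21.7 FPKM, and the 4 eosinophil markers to 2.78 to 4.17, 1.42 to 1.95 and 1.60 to 1.63 FPKM. The part of these cells in the results was not tested. In such bulk RNA, fewer cells that express a gene and less RNA of it per cell cannot be told apart.

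Most of the 46 genes were expressed at low levels. Of the 46, 26 (56.5%) had a mean under 1 FPKM over the 6 libraries. The other 20 reached 1 FPKM, a larger share than the 18.0% (9794 genes) of the whole table, and 5 reached 10 FPKM. The whole table is an unlike set, since only 30192 of its 54532 genes had a value above 0 in any library. The 2 genes at the highest level were Cdkn1a, which encodes the cyclin-dependent kinase inhibitor p21, and Pcna, the sliding clamp of DNA polymerases. Pcna was at 82.2 and 63.0 FPKM in Control, at 103 and 61.5 in Model and at 83.1 and 65.5 in MUS. Its libraries overlapped in all groups, and the pseudogene Pcna-ps2 shares 19.1% of its 50-base stretches. The 44 genes other than Cdkn1a and Pcna had a summed level of 77.3 and 59.0 FPKM in Control, of 80.5 and 88.4 in Model and of 87.1 and 95.3 in MUS.

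The 26 genes under 1 FPKM had means of 0.0907 to 0.845 FPKM and 0 to 196 fragments in a library, with a median of 38. They are the G1 genes Ccnd1, Ccne2 and E2f2, the replication genes Mcm2, Cdc6, Cdc45, Gins2 and Uhrf1, the deoxynucleotide enzymes Tyms and Tk1, 9 of the mitotic genes (Cdk1, Ccna2, Ccnb1, Bub1, Aurka, Aurkb, Plk1, Birc5 and Cdc20) and 7 of the chromosome and spindle genes (Cenpe, Cenpf, Kif11, Kif20a, Kif23, Nusap1 and Prc1). Cyclin A, cyclin B1, Cdk1, Aurora kinases and Plk1, which drive S phase and mitosis, thus lay below the level at which fold changes were tested. Values at 0 occurred 3 times, all in E2f2. For several of these genes the reads cannot be assigned with certainty, because 67.3% of the exonic bases of Gins2 overlap Gse1, 29.3% of Kif20a overlap Cdc23 and 23.4% of Ccnd1 overlap LTO1, in libraries whose kit does not mark the strand.

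**Figure D2:**
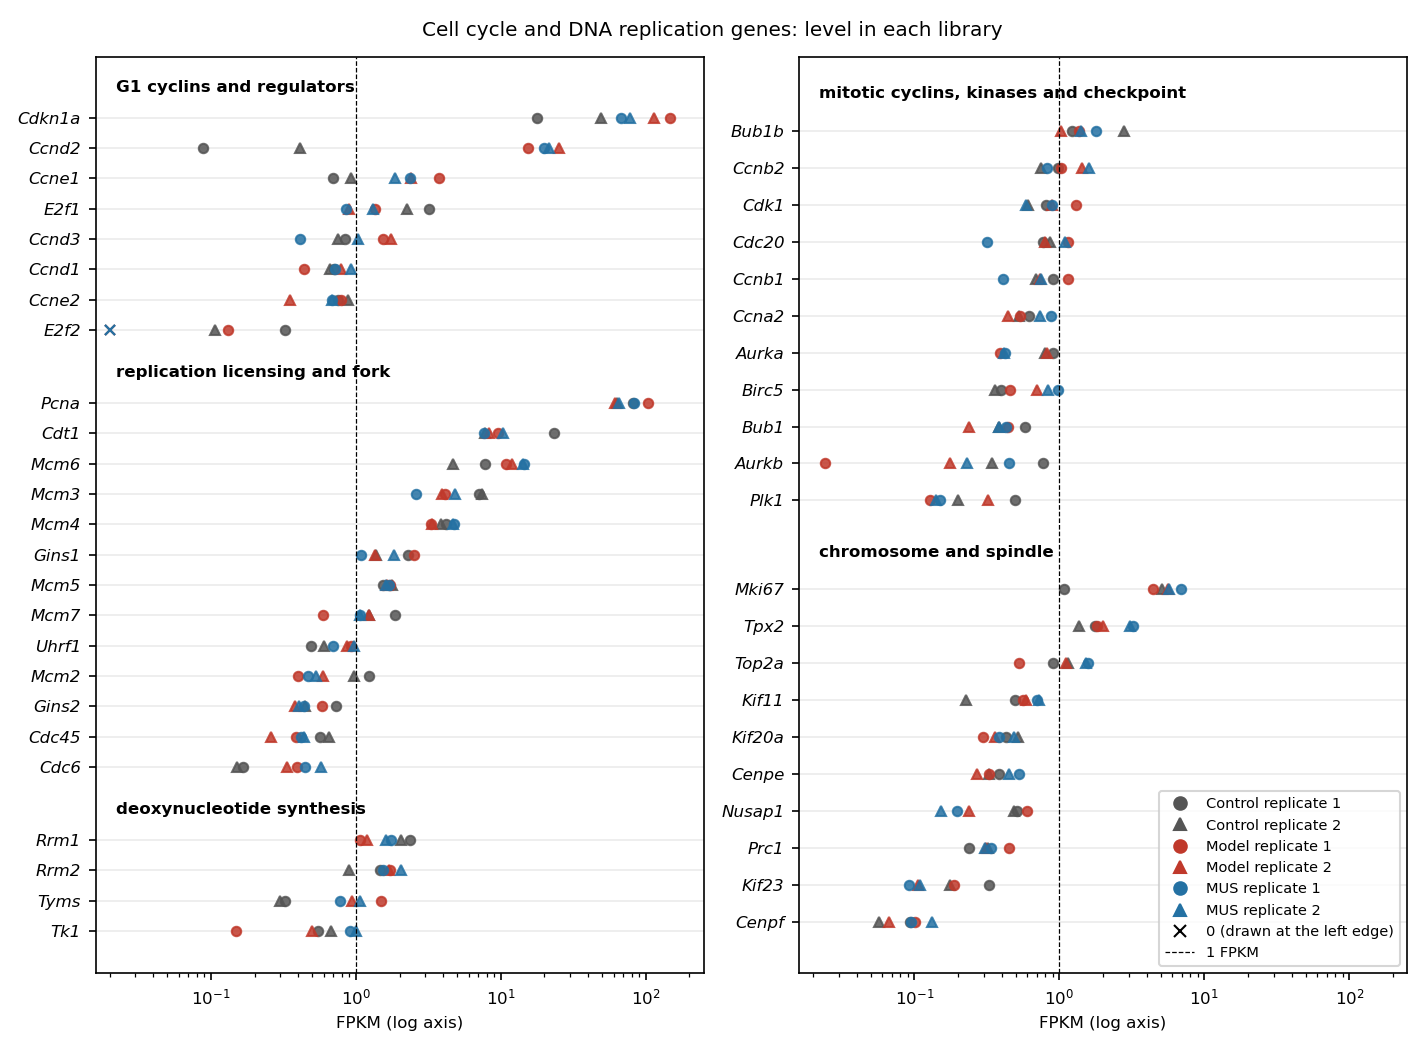
FPKM (log axis) of each of the 46 genes in each of the 6 libraries, grouped by role and ordered by mean level, with the dashed line at 1 FPKM and values of 0 at the left edge. Cdkn1a, Pcna, Ccnd2, Cdt1 and Mcm6 are the 5 genes that reach a mean of 10 FPKM, and 26 genes lie below 1.

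Between Model and Control, limma called 3 of the 20 genes in the fit, a share close to the 15.1% of all 9794 genes, and all 3 were higher: the G1 genes Ccnd2, Cdkn1a and Ccne1. Other scales added calls of lower genes, as given with the scales. A call needed an adjusted p of at most 0.05 in limma (Benjamini-Hochberg over all genes tested) and an absolute log2 fold change over 1 on the log2(FPKM + 1) scale, which understates changes of low genes. Over all genes 9.5% were called higher and 5.56% lower. The median log2 fold change of the 20 genes was 0.10, beside 0.04 over all genes, with 12 positive and 8 negative. Within the batches this median was 0.09 and 0.05, beside 0.04 and 0.01 over all genes. With 2 libraries a group, an exact permutation test of a single value cannot go below a two-sided p of 0.333, so single genes were tested only in the fit across all genes.

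Ccnd2, which encodes cyclin D2 (chr6:127125162-127152193), was the member with the largest fold change. It was at 0.0883 and 0.409 FPKM in Control, at 15.4 and 25.3 in Model and at 19.9 and 21.4 in MUS, which correspond to 19 and 88, 2041 and 3694, and 2831 and 3270 fragments. Both Control libraries lay far below the other 4, and the mean of Model was 81.9 times that of Control. Ccnd2 rose by a log2 fold change of 4.07 (SE 0.29, n = 2 a group, limma adjusted p = 0.00107), and by 3.91 and 4.22 within the batches. It was called under all 15 alternative settings tried, with values of 3.72 to 6.10. A share of 7.86% of its exonic bases overlaps 9330179D12Rik and Gm43126 on the other strand.

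Cdkn1a (chr17:29090976-29100727) was at 17.7 and 48.7 FPKM in Control, at 147 and 114 in Model and at 67.3 and 77.6 in MUS. Every Model library was above every Control and MUS library, and the Control libraries differed 2.76-fold from each other. Cdkn1a rose by a log2 fold change of 2.10 in Model (SE 0.47, limma adjusted p = 0.0274), with 2.98 in batch 1 and 1.21 in batch 2. The direction held in every setting, but the call was lost in 7 of 15: without Control replicate 1 the value was 1.39 (limma adjusted p = 0.0543), without Model replicate 1 1.91 (0.121) and without Model replicate 2 2.28 (0.0642).

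Ccne1, which encodes cyclin E1 (chr7:38097984-38107534), was at 0.690 and 0.919 FPKM in Control, at 3.75 and 2.40 in Model and at 2.36 and 1.85 in MUS. All LPS + ATP-treated libraries were above both Control libraries, and Model and MUS did not overlap. It rose in Model by 1.16 (SE 0.25, limma adjusted p = 0.0235), with 1.49 and 0.82 within the batches. The call was lost in 5 of 15 settings, among them without Control replicate 1 (1.07, limma adjusted p = 0.109) and without Model replicate 1 (0.92, 0.0832).

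The other G1 genes were not called. Ccnd3, which encodes cyclin D3, was at 0.847 and 0.752 FPKM in Control, at 1.54 and 1.74 in Model and at 0.415 and 1.03 in MUS. The Model libraries were the highest of the 6 (Model vs Control 0.55, limma adjusted p = 0.182). E2f1, which encodes an activating E2F factor, was at 3.22 and 2.26 FPKM in Control, at 1.35 and 0.900 in Model and at 0.860 and 1.31 in MUS. Both Control libraries were above the other 4, with a log2 fold change of -0.81 in Model (limma adjusted p = 0.0709) that was close to equal in the batches (-0.84 and -0.78). Ccnd1, cyclin D1, was at 0.706 and 0.659 FPKM in Control, at 0.436 and 0.795 in Model and at 0.717 and 0.928 in MUS, and Ccne2, cyclin E2, at 0.751 and 0.875, 0.791 and 0.351, and 0.682 and 0.687. The Model and Control libraries of both genes overlapped. E2f2 was at 0.323 and 0.107 FPKM in Control and 0.131 and 0 in Model and was listed at 0 in both MUS libraries.

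**Figure D3:**
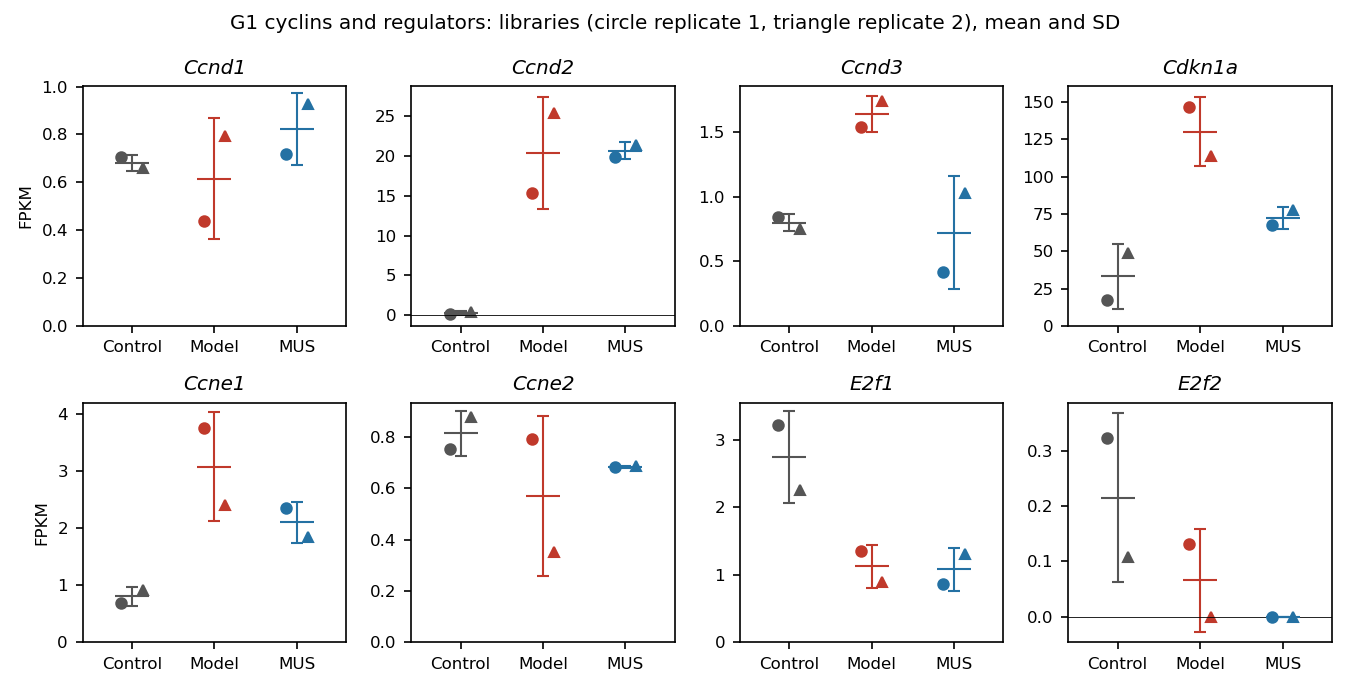
FPKM of the 8 G1 cyclins and regulators in each library (circle, replicate 1 and triangle, replicate 2), with the mean and SD of each group of 2. Ccnd2, Cdkn1a and Ccne1 lie higher in both Model libraries than in both Control libraries, and E2f1 lies lower.

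Of the 8 replication licensing and fork genes tested, 0 were called in Model vs Control, beside 15.1% of all genes. Their log2 fold changes were -0.72 to 0.82, with 2 at an unadjusted p under 0.05, beside 33.6% of all genes. Mcm6, a subunit of the MCM2-7 replicative helicase, was at 7.73 and 4.69 FPKM in Control, at 10.9 and 12.0 in Model and at 14.3 and 14.2 in MUS. By the deposited FPKM its libraries ascended from Control to Model to MUS without overlap (Model vs Control 0.82, SE 0.27, limma adjusted p = 0.0788). The separation of Model from Control depends on the scale. Control replicate 1 had 825 Mcm6 fragments of a total of 15742538, more than Model replicate 1 with 718 of 15529580. Scaled to the fragment total, the Model vs Control value of Mcm6 was 0.34 (limma adjusted p = 0.409). Mcm3, another subunit of the same complex, went the other way, at 7.11 and 7.43 FPKM in Control, at 4.14 and 3.94 in Model and at 2.59 and 4.81 in MUS (Model vs Control -0.72, SE 0.27, limma adjusted p = 0.110). The remaining subunits tested had log2 fold changes of -0.22 (Mcm4), 0.01 (Mcm5) and -0.42 (Mcm7). Cdt1, which loads the helicase, was at 23.4 and 7.75 FPKM in Control, at 9.57 and 8.35 in Model and at 7.65 and 10.3 in MUS. Only Control replicate 1 stood apart, 3.02 times above Control replicate 2, and the difference between Model and Control was -1.21 in batch 1 and 0.09 in batch 2.

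In deoxynucleotide synthesis, Rrm1 and Rrm2 encode the large and the small subunit of ribonucleotide reductase. Rrm1 was at 2.38 and 2.06 FPKM in Control, at 1.07 and 1.19 in Model and at 1.75 and 1.61 in MUS, so that Model lay below MUS and MUS below Control (Model vs Control -0.59, SE 0.21, limma adjusted p = 0.0938). Rrm2 was at 1.47 and 0.899 FPKM in Control, at 1.71 and 1.70 in Model and at 1.53 and 2.04 in MUS (0.32, limma adjusted p = 0.374). Tyms, thymidylate synthase, was under the level tested, with 0.323 and 0.301 FPKM in Control, at 1.49 and 0.943 in Model and at 0.782 and 1.06 in MUS. All 4 LPS + ATP-treated libraries were above Control. With genes of at least 0.1 FPKM in the fit, Tyms had a Model vs Control log2 fold change of 0.75 (limma adjusted p = 0.0792) and was not called.

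Only 2 of the 11 mitotic genes and 3 of the 10 chromosome and spindle genes were tested. Of these, 0 were called in Model vs Control, beside 15.1% of all genes, which says little with so few genes. Bub1b, a spindle checkpoint kinase, was at 1.23 and 2.81 FPKM in Control, at 1.36 and 1.03 in Model and at 1.80 and 1.41 in MUS, and Ccnb2, cyclin B2, at 0.971 and 0.742, 1.02 and 1.43, and 0.821 and 1.61. Their log2 fold changes in Model were -0.41 and 0.26 (limma adjusted p = 0.366 and 0.530). Cdk1, the kinase of mitotic entry, was under the level tested, at 0.807 and 0.611 FPKM in Control, at 1.29 and 0.890 in Model and at 0.885 and 0.586 in MUS. Its Model libraries were above those of Control and, by a small margin, above those of MUS. Mki67, which encodes the proliferation marker Ki-67, was at 1.08 and 5.13 FPKM in Control, at 4.43 and 5.62 in Model and at 6.87 and 5.75 in MUS. The Control libraries differed 4.76-fold, and Control replicate 2 lay within the range of Model (0.75, limma adjusted p = 0.297, with 1.39 in batch 1 and 0.11 in batch 2). Top2a, topoisomerase II alpha, was at 0.903 and 1.14 FPKM in Control, at 0.527 and 1.12 in Model and at 1.58 and 1.52 in MUS. It overlapped between Model and Control (-0.17, limma adjusted p = 0.668).

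Across the 20 genes, 8 were higher in both Model libraries than in both Control libraries and 4 were lower, beside 32.6% and 28.5% of all genes. A total of 7 genes had an unadjusted p under 0.05, beside 33.6% of all genes: the 3 called genes, Mcm6, E2f1, Mcm3 and Rrm1. The directions depend on the scale. With values scaled to the fragment total, the median of all genes in Model vs Control was -0.42 and that of the 20 genes -0.34, against 0.04 and 0.10 as deposited, and the genes called higher and lower were 647 and 1633, against 930 and 545. With quantile normalization they were 707 and 715. Under the fragment total Ccnd2 was at 3.91, Cdkn1a at 1.56 and Ccne1 at 0.87, the last no longer called, while E2f1 (-1.22, limma adjusted p = 0.0211) and Mcm3 (-1.20, 0.0245) were then called lower. Ccnb2, Tpx2, Pcna, Gins1 and Mcm5 were above 0 as deposited and below 0 with the fragment total, so that 7 of the 20 genes stayed positive. Relative to the median of all genes, the median of the 20 genes was 0.05 as deposited and 0.05 to 0.17 under the other scales.

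**Figure D4:**
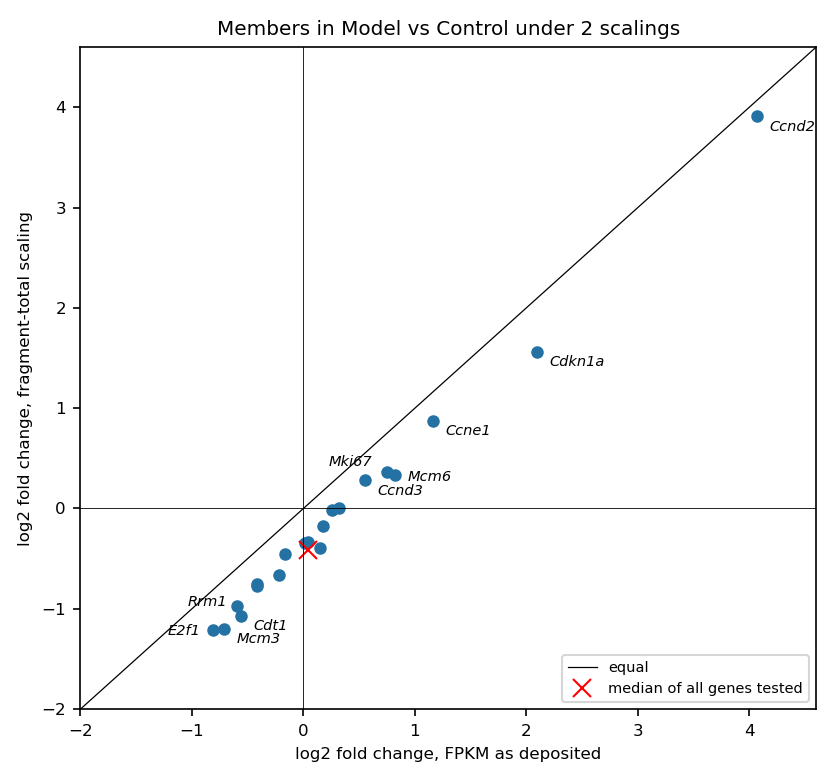
Log2 fold changes of the 20 genes tested in Model vs Control with the FPKM as deposited (x axis) and scaled to the fragment total (y axis), with the line of equality and the median of all genes (cross). All 20 lie below the line, the cross at 0.04 and -0.42.

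Voom also scales to fragment totals, so its directions depend on that scale and are no separate check of it. With voom on the fragments of all genes with a mean of at least 0.1 FPKM, a setting chosen after seeing the data, 44 of the 46 genes could be tested. In Model vs Control 3 were then called higher (Ccnd2, Cdkn1a and Ccne1) and 5 lower (Mcm3, Rrm1, E2f1, Mcm2 and Aurkb), beside 4.77% and 15.4% of all 16645 genes. Mcm2, a helicase subunit, was at 1.23 and 0.968 FPKM in Control and 0.397 and 0.594 in Model, and Aurkb, the Aurora kinase of the chromosomal passenger complex, at 0.772 and 0.341 and at 0.0241 and 0.175. The values of Aurkb rest on 52 and 23 fragments in Control and on only 1 and 8 in Model. In that setting the median of the 44 genes was -0.75 and that of all genes -0.48.

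Adding muscone changed none of the 20 genes tested detectably. In MUS vs Model, 0 of the 20 genes were called, against 0% of all genes, and the smallest adjusted p in limma was 0.139 over all genes. At an unadjusted p under 0.05 there were 825 genes (8.42%, of which 2.61% of genes higher and 5.81% lower) and 2 of the 20, 1 higher and 1 lower. Voom called 0 genes as well, with 690 at an unadjusted p under 0.05. With genes of at least 0.1 FPKM in the limma fit, 0 of 44 members were called. In that fit 3 members were at an unadjusted p under 0.05, beside 1175 of 16645 genes. The median of the 20 genes was 0.01, the same as over all genes. Within the batches it was -0.06 and 0.20, beside -0.0078 and 0.0043 over all genes. Higher in both MUS than in both Model libraries were 7 of the 20 genes and lower were 3, beside 21.2% and 21% of all genes.

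The 2 genes at an unadjusted p under 0.05 were Tpx2 and Ccnd3. Tpx2, a spindle assembly factor that activates Aurora A, was at 1.76 and 1.37 FPKM in Control, at 1.80 and 1.99 in Model and at 3.24 and 3.08 in MUS. Both MUS libraries were above all others, by 0.52 over Model (95% interval ± 0.48, limma adjusted p = 0.550), with 0.60 and 0.45 within the batches. Ccnd3 was lower in both MUS than in both Model libraries (-0.64 ± 0.61, limma adjusted p = 0.569). Cdkn1a was also lower in both, by -0.83 ± 1.12 (limma adjusted p = 0.711), with -1.11 and -0.54 within the batches. For Ccnd2 the difference was 0.06 ± 0.68, and without Model replicate 1 it was -0.28. The intervals of Ccne1 (-0.38 ± 0.59) and Mcm6 (0.30 ± 0.63) include 0, and a change within them was not detectable with 2 libraries a group.

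In MUS vs Control, which shares the Control libraries with Model vs Control and the MUS libraries with MUS vs Model, 2 of the 20 genes were called, both higher, against 20.2% of all genes (11.3% higher and 8.91% lower). Ccnd2 rose by 4.13 (SE 0.29, limma adjusted p = 0.00105) and was called in all 15 settings, at 3.87 to 6.17. Mcm6 rose by 1.11 (SE 0.27, limma adjusted p = 0.0259), with 0.81 and 1.42 within the batches. Its call was lost in 8 of 15 settings: it was 0.81 without Control replicate 2 (limma adjusted p = 0.0714), 1.11 without MUS replicate 1 (0.170), 1.12 without MUS replicate 2 (0.127) and 0.64 with values scaled to the fragment total (0.134). Cdkn1a had 1.27 (limma adjusted p = 0.0935) and was called without Control replicate 2, at 1.97. At an unadjusted p under 0.05 were 7 of the 20 genes, beside 39.7% of all genes. Of these, Ccne1 had 0.78 (limma adjusted p = 0.0606), E2f1 -0.84 (0.0520), Mcm3 -0.86 (0.0557) and Tpx2 0.70 (0.0471), the last below the fold required. With the fragment total E2f1 (-1.23, limma adjusted p = 0.0156) and Mcm3 (-1.33, 0.0137) were called lower and Mcm6 was not called. That gave 1 member higher and 2 lower. Voom gave the same counts, but it also scales to fragment totals, so it is no separate check of the scale. The median of the 20 genes was 0.11, beside 0.04 over all genes, and scaled to the fragment total it was -0.30, beside -0.41, with Pcna, Ccnb2 and Mcm4 turning from above to below 0. Of the 20 genes 9 were higher and 4 lower in both MUS than in both Control libraries, beside 39.6% and 33.8% of all genes.

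**Figure D5:**
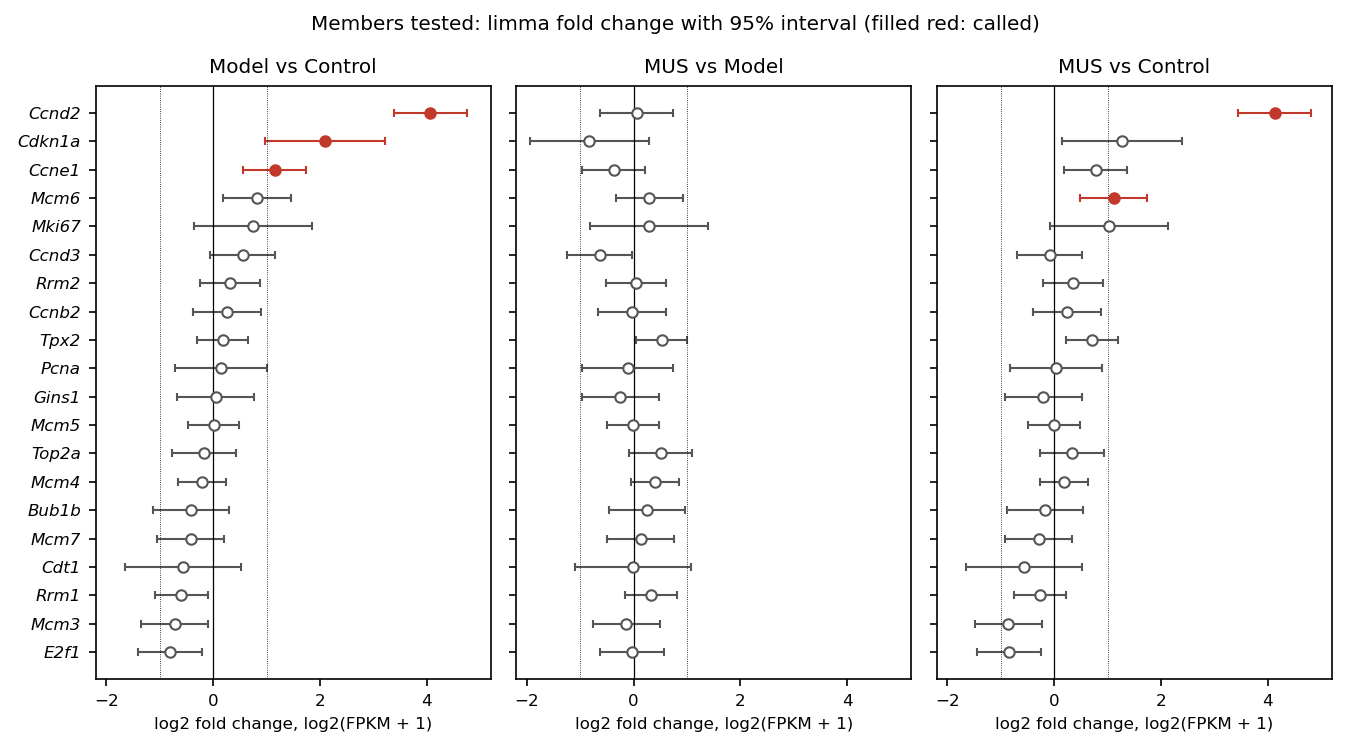
Log2 fold changes with 95% intervals from limma on the log2(FPKM + 1) scale for the 20 genes tested, in the 3 comparisons, with called genes in filled red and dotted lines at 1 and -1. Only Ccnd2 is called in both comparisons with Control, Cdkn1a and Ccne1 are called in Model and Mcm6 in MUS, and no gene is called in MUS vs Model.

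A wider list of 125 other cell cycle genes, chosen like the 46 with earlier results of these data known, places these values in the pathway. Of its 77 genes tested, 12 were called higher and 3 lower in Model vs Control, 0 in MUS vs Model, and 12 higher and 4 lower in MUS vs Control. Over all genes the shares were 9.5% higher and 5.56% lower in Model vs Control and 11.3% and 8.91% in MUS vs Control. The retinoblastoma family, whose proteins bind E2F factors, went in unlike directions. Rb1 was at 14.9 and 10.4 FPKM in Control, at 2.47 and 4.25 in Model and at 4.73 and 4.41 in MUS and fell by 1.66 in Model (limma adjusted p = 0.0110). Rbl1, which encodes p107, was at 3.71 and 4.95 FPKM in Control, at 17.6 and 19.6 in Model and at 22.5 and 19.6 in MUS and rose by 1.88. Rbl2, which encodes p130, fell by 1.09, and E2f5, a factor that pairs with p130 and p107, rose by 2.11. Without Control replicate 1 or Model replicate 1, the calls of Rb1 (-1.42 and -1.36, limma adjusted p = 0.0582 and 0.0552) and Rbl2 (-1.16 and -0.81) in Model were lost, and that of Rbl2 also without Control replicate 2 (-1.03).

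Among genes of deoxynucleotide pools, Dck, the deoxycytidine kinase of the salvage route, was at 6.27 and 24.4 FPKM in Control, at 85.1 and 73.1 in Model and at 63.8 and 60.1 in MUS. Samhd1, which degrades deoxynucleotides, was at 17.8 and 17.4 FPKM in Control, at 77.4 and 95.1 in Model and at 127 and 114 in MUS. They rose by 2.56 and 2.22 in Model and by 2.21 and 2.71 in MUS vs Control. The call of Dck was lost without either Model replicate in Model (2.45 and 2.66) and without either MUS replicate in MUS (2.17 and 2.26). Pttg1, which encodes securin, rose by 2.18 in Model. Of the 12 p53 targets and antiproliferative genes, 4 rose in Model (Btg2 by 1.66, Btg3 by 1.24, Gadd45b by 2.08 and Mdm2, the ubiquitin ligase of p53, by 1.48) and 1 fell, Sesn1, by 2.78, from 15.9 and 9.32 FPKM in Control to 0.996 and 0.843, beside 9.5% of all genes called higher and 5.56% lower. Of the same 12 genes, 6 were called higher and 2 lower in MUS vs Control, beside 11.3% and 8.91% of all genes. There, E2f5 rose by 2.22, while Sesn1 fell by 2.82, Rb1 by 1.27 and Sesn2 by 1.18. In that comparison, calls were lost without MUS replicate 1 for E2f5 (2.11), Rb1 (-1.31) and Sesn2 (-1.17), without MUS replicate 2 for Rb1 (-1.23) and Sesn2 (-1.20), and without Control replicate 1 for Rb1 (-1.03).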

How the data were processed

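RNA-seq of 6 mouse libraries (3 groups of 2) was analysed from 1 deposited table. The authors deposited FPKM per gene and library, which the methods say were made with RSEM, while the submitters' processing notes name HISAT2, featureCounts 1.5.0-p3 and GRCm39, and which of these made the table is not given in the sources used here. Gene positions matched GENCODE M21 on GRCm38 for 98.3% of 54409 shared gene identifiers. FPKM times the deposited gene length was a whole multiple of 1 step in each library (100% of values within 0.1 of a step), which gave fragments per gene. A count of 0 allows 3 fragments, or 0.131 to 0.213 FPKM for a gene of 1 kb, and covers counting error only. 0 columns of values had no sample.

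Genes with a mean of at least 1 FPKM (9794) were tested in limma 3.58.1 (R 4.3.3) on log2(FPKM + 1), with lmFit and eBayes with a trend over all 6 libraries in one model of 3 groups (3 residual and 4.04 prior degrees of freedom), two-sided, with Benjamini-Hochberg adjustment over all genes tested. Genes were called at an adjusted p of at most 0.05 with an absolute log2 fold change over 1. The main test was chosen for the deposited unit, FPKM, although the recovered fragments also allowed a count method. Voom was run on these fragments as an alternative, scaled to the summed fragments of the genes tested, and its calls differed as given below. The code was tested on simulated data. The 46 genes, the wider lists and the tests were chosen with earlier results of these data known. Every member is accounted for. Values in every library are given for called members, the G1 genes and the 3 members with the highest mean FPKM of each role, and of the wider list the 3 called genes with the largest and the 3 with the smallest fold change of each comparison are named. Rbl1, the called p53 targets, Mcm2, Aurkb, Nusap1 and E2f5 in Model were named after their values were seen.

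The replicate number is a batch in the labels, and the deviations of same-numbered libraries correlated at 0.12 (Control and Model), 0.14 (Model and MUS) and -0.09 (Control and MUS), so it was used as a block only in an alternative. Alternatives covered the pseudocount (0.1), filters, scaling, the trend, voom and leaving out each library. Figures and motif searches were made with Matplotlib 3.10.9, pandas 2.3.3 and NumPy 2.4.6 under Python 3.11.15.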

Additional observations from a re-analysis of the deposited data

How the results depend on the processing

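With 2 libraries a group, small changes cannot be told from the spread. The 26 of the 46 genes with a mean under 1 FPKM were left out of the main test. That limit is on FPKM and not on fragments, so some of them had more fragments than genes that were tested. Over the alternatives, Ccnd2 kept its direction and call in both comparisons with Control, and no member was called in MUS vs Model. In Model vs Control the genes called (1475) were 260 with no filter, 2280 with the fragment total, 2791 with voom, 3365 with voom from 0.1 FPKM, 797 with only the groups compared and 692 to 2077 when each library was left out, the lowest without Model replicate 1 and the highest without Control replicate 2. The members called (3) were 1 with no filter, 4 with the fragment total (2 higher and 2 lower), 6 with voom (3 and 3), 8 with voom from 0.1 FPKM, 1 with only the groups compared and 1 to 5 when each library was left out, at 1 without Control replicate 1 or Model replicate 1 and 5 without Control replicate 2. Their median (0.10) was -0.063 with no filter and from 0.1 FPKM, both of which bring in low genes, -0.34 with the fragment total, 0.042 with median-of-ratios scaling, -0.44 with voom, -0.75 with voom from 0.1 FPKM and 0.021 to 0.23 when each library was left out. In MUS vs Model the genes called (0) were 1 with a pseudocount of 0.1, 7 with only the groups compared and 0 to 31 when each library was left out, with the 31 found without Model replicate 2. The difference of Ccnd2 there (0.06) was -0.28 without Model replicate 1 and 0.40 without Model replicate 2. In MUS vs Control the genes called (1980) were 456 with no filter, 3169 with voom, 4076 with voom from 0.1 FPKM and 184 to 2398 when each library was left out, at 1082 without Control replicate 1, 184 without MUS replicate 1 and 719 without MUS replicate 2. The members called (2) were 1 with no filter, 1 with quantile normalization, 3 with the fragment total and 3 with voom (1 higher and 2 lower in each), 5 with voom from 0.1 FPKM (Ccnd2 higher and Mcm3, E2f1, Mcm2 and Nusap1 lower) and 1 to 4 when each library was left out, at 4 without Control replicate 2 and 1 without either MUS replicate. Beside these 5 of 44 members with voom from 0.1 FPKM, 5.52% of all 16645 genes were called higher and 19% lower. The median of the members tested (0.11) was -0.30 with the fragment total, -0.42 with voom and -0.53 with voom from 0.1 FPKM. Scaled to the fragment total, 743 genes were called higher and 2044 lower in MUS vs Control, against 1107 and 873, and with quantile normalization 885 and 1102. The cause of these shifts was not tested.

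Fitting the replicate number as a block gave 1582 genes called in Model vs Control, 4 in MUS vs Model and 2125 in MUS vs Control, and the members called stayed at 3, 0 and 2. The numbers were not shown to pair the libraries.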
